A study of Mus musculus with 32 samples.

Results

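The level of each transcript in metaphase II (MII) oocytes of B6xD2 F1 females was set against the arithmetic mean of the levels in the parental strains B6 and D2. All 16 MII libraries of the 32 in the series were used, 6 of B6, 5 of D2 and 5 of F1, and 15842 of 37441 genes had enough reads to be tested. Genes were then described by where F1 lay between, at or outside the parents.

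The females came from Jackson Laboratories, were inbred B6, inbred D2 or the F1 hybrid written B6xD2, carried no transgene or treatment named in the labels, and were used at 8 to 12 weeks of age. Each library was a pool of 9 to 20 MII oocytes of a single mother, freed of the zona pellucida, so the replicates are different mothers and not different cells of 1 mother. The other 16 libraries were germinal vesicle (GV) oocytes of the same 3 genotypes, collected with the phosphodiesterase inhibitor IBMX, and they share no library with the MII comparison. The GV pools also hold granulosa RNA and were left out of the MII fit for that reason. The labels give 2 sequencing batches on different HiSeq models, with 3 and 3 MII libraries of B6, 3 and 2 of D2, and 3 and 2 of F1 in batches 1 and 2.

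An MII oocyte is the mature, ovulated egg arrested at metaphase of the second meiotic division. It makes almost no new RNA, and its transcripts were laid down during oocyte growth and then partly degraded or deadenylated in maturation. An F1 oocyte grows with 1 allele from each strain. A gene whose alleles each keep the output they have in their own strain therefore gives F1 the arithmetic mean of the parents. An allele that is silent in 1 parent, and stays silent in F1, leaves F1 with the output of a single allele. Levels away from that mean are called non-additive in genetics.

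The MII libraries held 26838385 to 35850302 counted reads with 17673 to 21356 genes detected. CPM are counts scaled to the library total after TMM adjustment. Principal components were taken on log2 levels of the 9165 genes with a mean of at least 5 CPM, after batch differences were removed. The first component held 56.0% of the variance that remained, which is not a share of the total variance. On it, B6 lay between -38.7 and -30.5, D2 between 36.3 and 45.2, and F1 between -1.74 and 3.44, beside a parental midpoint of 3.28. On the second component, F1 batch 1 replicate 5 stood apart at -36.8. Oocyte markers summed to 9047 to 12170 CPM in all MII libraries, whereas 33 granulosa and cumulus markers summed to 326 to 443 CPM in B6, 438 to 543 in D2 and 393 to 469 in F1. Of the 33, 19 to 22 were under 1 CPM, and Foxl2 and Slc38a3 were at 0 in all 16 libraries. The highest were Serpine2, Nr5a2, Esr2 and Cyp19a1, with means of 226, 76.3, 54.4 and 28.7 CPM, and these were read in every MII library. In batch 2 the date in the library names was the same for both F1 libraries and another for all 3 B6 libraries, so date and genotype cannot be told apart between those. In bulk RNA, fewer transcripts per oocyte and other causes of a lower share of reads cannot be told apart.

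F1 MII oocytes lay close to the mid-parent at most genes, and the few called away from it lay nearly all below it in the edgeR fit. The transcripts called below included Cdc5l, a splicing factor of the PRP19 complex, the linker histones H1f4 and H1f2, the histone variant H2az1, 2 ribosomal protein genes and 4 F-box genes of a cluster on chromosome 9. Above the mid-parent were Zfp933, a zinc finger gene, and Il17rd, an inhibitor of fibroblast growth factor signalling. Distance from the mid-parent is given as log2(F1) minus log2 of the mean of B6 and D2, from a fit with batch as a term, and a call is an adjusted p under 0.05 over all genes tested.

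Of 15842 genes, 25 were called (0.158%), 23 below (0.145%) and 2 above the mid-parent (0.0126%). The balance depended on the fit: with linear CPM in limma 3 genes were above and 2 below the same mid-parent, and from the geometric mean of the parents 180 were above and 23 below. At an unadjusted p under 0.05 there were 1418, of which 980 lay below and 438 above. The median distance over all genes was -0.04, and over the 9165 genes at 5 CPM or more it was -0.00, with a median standard error (SE) of 0.14. For 6509 of these 9165 genes the 95% interval of the distance lay within 1.5-fold of the mid-parent on either side. In the same libraries D2 differed from B6 at 4926 genes (31.1%), 2473 higher and 2453 lower in D2. F1 differed from B6 at 1557 (9.83%) and from D2 at 1635 (10.3%).

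The number of calls depended on the batch term and on single libraries. With 3 levels, which separate the 2 dates in the library names of batch 2, 13 genes were called and 12 of the 25 kept their call. Among the 13 that lost it were Muc20, Myo10, Il17rd, Klf12, Foxp2, Gli2, Fam53b, Ftdc2 and Fbxw18. Without a batch term 1 gene was called. With the 2 labelled batches the number was 25 with all libraries and 6 without F1 batch 1 replicate 5, the library apart on the second component. It was 10 without F1 batch 1 replicate 3, 11 without D2 batch 1 replicate 3, 12 without D2 batch 1 replicate 2, 14 without F1 batch 2 replicate 2 and 16 without B6 batch 1 replicate 1. Cdc5l, H1f4, Muc20, Myo10 and Stc1 were among those called with each of the 16 libraries left out in turn. Of the 25 called genes, 19 were not called without F1 batch 1 replicate 5. No gene was called above the mid-parent without F1 batch 1 replicate 3, 4 or 5, or without F1 batch 2 replicate 1.

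**Figure D1:**
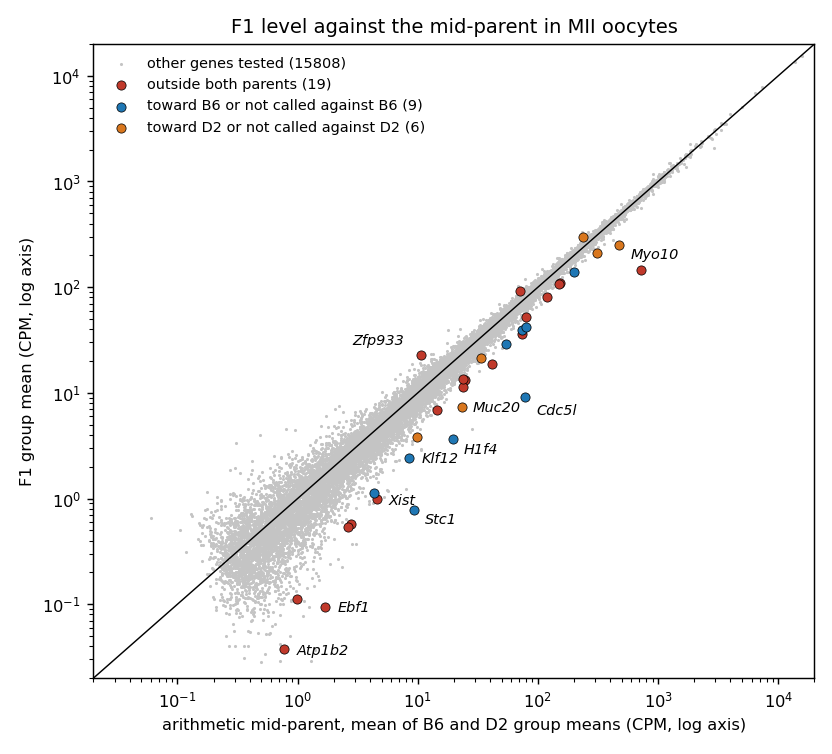
Mean CPM of the 5 F1 MII libraries (y, log axis) against the arithmetic mean of the B6 and D2 group means (x, log axis), 1 point per gene, coloured by class; the diagonal is equality. The 15808 other genes follow the diagonal, 19 genes lie outside both parents, 9 lie toward B6 or were not called against it and 6 likewise for D2, and most of the coloured points sit below the line.

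Among the 4926 genes at which the parents differed, 572 (11.6%) were intermediate, which means that F1 was called against both parents, lay between them and was not called against the mid-parent. Called against the mid-parent were 6 genes that differed from D2 and not by the test from B6, 3 that differed from B6 and not by the test from D2, 3 between the parents but toward B6 and 3 between but toward D2. A missing call against a parent does not place F1 at that parent's level. Without F1 batch 1 replicate 5 the first of these groups fell from 6 to 1 gene and the second from 3 to 0. The first also had 2 without F1 batch 1 replicate 3, and 3 without D2 batch 1 replicate 2 or replicate 3. The second had 1 without each of 8 other libraries, namely F1 batch 1 replicates 3 and 4, F1 batch 2 replicate 2, D2 batch 1 replicates 2 and 3, B6 batch 1 replicates 1 and 2 and B6 batch 2 replicate 2. In 4338 (88.1%) F1 could not be placed, since it was called against neither parent in 2523, against B6 alone in 860 and against D2 alone in 955. The F1 mean of these 4338 genes lay between the parental means in 3953 (91.1%). Their median parental difference was 1.86-fold, against 3.31-fold for the 572 intermediate genes. Outside both parents lay 19 genes, 2 above and 17 below, and 11 without F1 batch 1 replicate 3 or without replicate 5. Of these 19, 10 were also called against the mid-parent, and 9 were not.

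The 572 intermediate genes spanned parental differences from 1.71-fold at the 5th percentile to 169-fold at the 95th. With 0% as the B6 level and 100% as the D2 level, F1 lay at a median of 49.5%, and from 27.7% to 74.3% between the 5th and 95th percentiles. Split by parent, F1 was at a median of 39.2% in the 280 genes higher in D2 and at 58.7% in the 292 higher in B6, which is nearer the lower parent in both. The class itself needs F1 to be separate from both parents, so the position was also taken in genes chosen on GV libraries alone. For genes with at least a 2-fold parental difference in GV and at least 5 CPM, the MII position was 42.0% in 439 genes higher in D2 and 55.4% in 490 higher in B6. At 4-fold or more in GV it was 44.3% in 99 genes and 56.1% in 160.

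**Figure D2:**
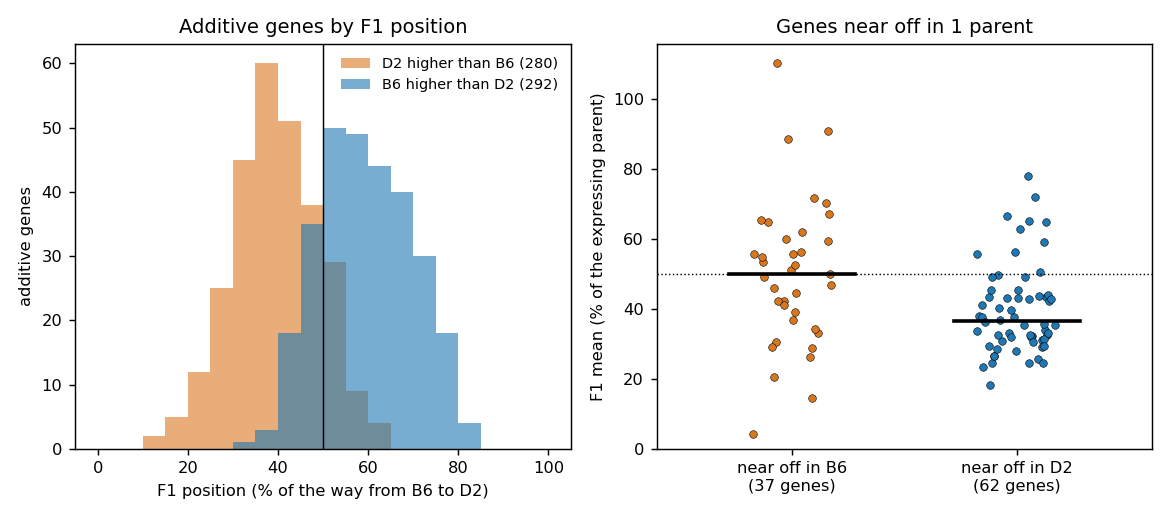
Left, number of intermediate genes (y) by the F1 position in percent of the way from B6 to D2 (x), for 280 genes higher in D2 and 292 higher in B6. Right, the F1 level in percent of the expressing parent (y) for genes near off in B6 or in D2, 1 point per gene with a bar at the median; the left distributions centre at 39.2% and 58.7%, and the medians at the right are 50.0% and 36.5%.

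Large strain differences gave clear examples of intermediate F1 levels. Pnpla3, a lipase of the lipid droplet on chromosome 15, was at 0.677 to 1.47 CPM in the 6 B6 libraries (median 1.01), at 248.7, 264, 279, 323 and 236 in D2, and at 113, 123, 108, 126 and 112 in F1. No F1 library overlapped either parent, and the distance from the mid-parent was -0.22 ± 0.12 (SE). Pxdn, a peroxidase that cross-links collagen IV, was at 0.137 to 0.882 CPM in B6 (median 0.474), at 145, 157, 142, 186 and 181 in D2, and at 54.5, 61.5, 54.3, 66.4 and 59.6 in F1. The F1 libraries again formed a separate group, at a distance of -0.45 ± 0.15, which had an adjusted p of 0.346. In the other direction, Me1, the cytosolic malic enzyme that makes NADPH, was at 250.0 to 352 CPM in B6 (median 274), at 32.8, 29.0, 30.6, 33.1 and 24.3 in D2, and at 203, 158, 194, 139 and 141 in F1. Its 3 groups did not overlap, and its distance was 0.05 ± 0.09.

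Ddx4, Ndc80 and Egr1 were also intermediate, although most genes of the oocyte lists at which the parents differed were not placed. Intermediate were 1 of 9 in the zona and oocyte-secreted list, 1 of 8 in the sperm-egg fusion list, 0 of 13 in the egg activation list, 0 of 7 in the subcortical maternal complex list, 0 of 13 in the meiotic kinase list, 3 of 12 in the cohesin and kinetochore list and 1 of 6 oocyte markers, beside 11.6% over all genes. Ddx4, the germ cell RNA helicase also called Vasa, was at 15.7 to 24.4 CPM in B6 (median 21.0), at 62.9, 72.5, 86.9, 66.6 and 52.3 in D2, and at 39.0, 34.6, 43.6, 31.5 and 35.5 in F1, at a distance of -0.27 ± 0.14. Ndc80, a kinetochore protein that binds microtubules, was at 79.4 to 150 CPM in B6 (median 104), at 22.4, 29.4, 46.0, 30.8 and 46.4 in D2, and at 59.5, 60.9, 67.3, 72.8 and 68.5 in F1, at -0.12 ± 0.15. In both genes all 5 F1 libraries lay between the parental ranges. The immediate early gene Egr1 was at 70.8 to 104 CPM in B6 (median 86.4), at 194, 209, 216, 181 and 228 in D2, and at 136, 138, 130, 133 and 170 in F1, at -0.05 ± 0.09.

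Sirt1, a nuclear deacetylase, was intermediate but near B6. It was at 49.1 to 75.2 CPM in B6 (median 60.5), at 152, 149, 135, 196 and 201 in D2, and at 78.1, 77.4, 77.7, 93.8 and 90.4 in F1. All F1 libraries were above all B6 libraries and below all D2 libraries, but at 21.1% of the way from B6 to D2. Its distance of -0.44 ± 0.10 had an adjusted p of 0.0995. Cd9, a tetraspanin needed for sperm-egg fusion, differed by batch: F1 was at 45.9, 34.0 and 26.3 CPM in batch 1 and at 14.7 and 14.4 in batch 2, beside 68.2, 48.6, 45.4, 19.4 and 24.5 in D2 and 9.37 to 28.9 in B6 (median 17.0). Across batches the Cd9 groups overlapped, and its distance was -0.15 ± 0.14.

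Where 1 parent had almost no transcript, the F1 level was set against the expressing parent alone. Reads were not split by allele, so which allele gave the F1 level was not tested. There were 37 genes under 0.5 CPM in B6 and at least 5 CPM in D2, and 62 with the reverse. F1 was at a median of 50.0% of D2 in the 37 (quartiles 36.7 and 59.8%) and at a median of 36.5% of B6 in the 62 (quartiles 31.2 and 43.8%), where an additive gene has 50%. Of the 37, 10 were intermediate, 2 were called against the mid-parent and 25 were not placed. Of the 62, 37 were intermediate, none was called against the mid-parent and 25 were not placed. The 95% interval of the distance included 0 in 30 of the 37 and in 53 of the 62. The genes were chosen on the same MII means that set the F1 percentages, so the choice itself can lower the F1 share. In the GV libraries, which were not used for the choice, the same genes had medians of 51.4% and 41.4%. Of the 62, 20 were Vmn1r and predicted genes in a run between 20592972 and 23275243 on chromosome 7, at 23.3 to 34.1% of B6 with a median of 31.5% (35.0% in GV). The other 42 had a median of 43.0% in MII and 48.5% in GV. This split was made after the values were seen.

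Pknox2, a TALE homeobox gene on chromosome 9, was at 0.103 to 0.451 CPM in B6 (median 0.254), at 40.1, 37.0, 34.4, 69.3 and 82.8 in D2, and at 15.9, 22.3, 27.3, 35.9 and 45.4 in F1, so the mean F1 level was 55.7% of D2. Manba, the lysosomal beta-mannosidase, was at 0.105 to 0.651 CPM in B6 (median 0.327), at 54.1, 51.8, 68.0, 39.2 and 39.8 in D2, and at 33.4, 34.3, 42.5, 19.3 and 21.1 in F1, or 59.5% of D2. For both genes F1 was far above B6 in every library; for Pknox2 the F1 and D2 libraries overlapped across batches, and for Manba they overlapped between F1 batch 1 and D2 batch 2. Slc39a8, a zinc transporter, had the highest share of the 37, with F1 at 40.1, 48.7, 51.8, 39.3 and 16.7 CPM beside 39.9, 35.9, 30.0, 41.8 and 30.4 in D2 and 0.0601 to 0.629 in B6 (median 0.184). Its F1 level was 110% of D2, at a distance of 1.11 ± 0.29 with an adjusted p of 0.187, and it was 1.26 ± 0.34 in GV.

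Silent in D2 were, among others, Sh3rf2, Fgf7 and Defb8. Sh3rf2, a RING and SH3 domain protein, was at 42.6 to 65.3 CPM in B6 (median 52.0), at 0.0589, 0.0959, 0.0281, 0.272 and 0.397 in D2, and at 21.4, 18.5, 16.3, 20.9 and 30.7 in F1, or 41.1% of B6. Fgf7, a growth factor, was at 15.6 to 28.1 CPM in B6 (median 23.7), at 0.589, 0.0959, 0, 1.21 and 0.0721 in D2, and at 9.77, 7.70, 7.92, 13.1 and 12.8 in F1, or 45.4% of B6. The beta-defensin Defb8 reached 43.4% of B6. In each of these 3 genes the F1 libraries lay below the lowest B6 library, with the exception of 2 Defb8 libraries at 12.6 and 12.5 CPM beside a lowest B6 library of 11.2. Of the 62 genes, 10 were Vmn1r genes, which encode vomeronasal receptors, with F1 between 30.5 and 34.1% of B6. The 4 most abundant of them, Vmn1r112, Vmn1r132, Vmn1r139 and Vmn1r157, share 69.3 to 100% of their 50-base sequences with other genes, so their values may count the same reads, and the genes of the run are not independent measurements.

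The departure with the smallest adjusted p was that of Cdc5l, on chr17:45391887-45433707 (NCBI gene 71702). It was at 0.462 to 1.98 CPM in B6 (median 1.57), at 158, 165, 147, 162 and 147 in D2, and at 9.13, 12.6, 1.88, 7.27 and 14.5 in F1. F1 was therefore near the B6 level and above it in 4 of 5 libraries, with the other inside the B6 range. It stood at 11.5% of the mid-parent (95% interval 7.05 to 18.6), a distance of -3.13 ± 0.33 (adjusted p = 0.000219), with -3.32 in batch 1 and -2.84 in batch 2. In GV oocytes, whose libraries were not used above, the means were 6.57 CPM in B6, 149 in D2 and 13.2 in F1, and the distance was -2.58 ± 0.33 (adjusted p = 0.0106). Of its transcript's 50-base sequences 36.6% occur in other genes, so its level depends on how shared reads were counted, which is not given in the sources used here.

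Stc1, a secreted glycoprotein hormone, and Klf12, a zinc finger repressor, were the called genes among those near off in B6. Stc1 was at 0 to 0.206 CPM in B6 (median 0.0475), at 7.19, 11.4, 15.2, 14.5 and 45.1 in D2, and at 0.819, 1.87, 0.806, 0.195 and 0.1996 in F1. All F1 libraries were far below D2 and the 2 of batch 2 were within the B6 range. Its distance was -3.50 ± 0.56 (adjusted p = 0.00839). Klf12 was at 0 to 0.150 CPM in B6 (median 0.0854), at 16.4, 15.4, 16.3, 14.1 and 22.1 in D2, and at 3.39, 2.56, 1.34, 1.09 and 3.79 in F1. Its F1 libraries lay between the parents and nearer B6, at -1.79 ± 0.36 (adjusted p = 0.0352).

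Toward D2 lay Muc20, Myo10 and Foxp2, all higher in B6. Muc20, a mucin on chr16:32777419-32797435, was at 22.8 to 75.6 CPM in B6 (median 39.1), at 2.30, 2.33, 1.57, 2.18 and 7.00 in D2, and at 4.56, 6.99, 3.63, 10.6 and 10.9 in F1. The F1 libraries were all below B6 and overlapped D2 only through D2 batch 2 replicate 2, and the distance was -1.59 ± 0.24 (adjusted p = 0.00417). It was the other gene called in GV, at -1.39 ± 0.21 (adjusted p = 0.0179). Myo10, an unconventional myosin of filopodia on chr15:25622550-25813673, was at 535 to 1210 CPM in B6 (median 858), at 79.0, 67.5, 52.7, 168 and 175 in D2, and at 197, 177, 234, 333 and 320 in F1. Its 3 groups did not overlap, and the distance was -0.82 ± 0.13 in MII (adjusted p = 0.00839) and -0.82 ± 0.19 in GV. Foxp2, a forkhead transcription factor, was at 14.2 to 24.5 CPM in B6 (median 16.9), at 1.65, 1.53, 0.842, 2.45 and 1.62 in D2, and at 4.07, 5.69, 2.99, 3.56 and 2.88 in F1. Here too the F1 libraries formed a group of their own, at -1.29 ± 0.24 (adjusted p = 0.0263).

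The 6 genes not called against B6 were all higher in D2: H1f4, H1f2, H2az1, Gm8203, Rpl41 and Fbxw18. The F1 means of H1f2, Rpl41 and Fbxw18 lay below both parental means, with Rpl41 at 63.1 CPM in B6, 96.5 in D2 and 41.9 in F1 (F1 against B6, adjusted p = 0.0594), and Fbxw18 at 166, 233 and 139.9. H1f4, a linker histone gene (chr13:23621777-23622558), was at 0.529 to 7.39 CPM in B6 (median 3.22), at 54.2, 56.2, 45.7, 12.7 and 10.2 in D2, and at 4.59, 6.99, 3.56, 2.27 and 0.839 in F1. No F1 library reached the D2 range and all were inside the B6 range, with a distance of -2.32 ± 0.29 (adjusted p = 0.000362). H1f2, another linker histone gene on chromosome 13, had a distance of -1.83 ± 0.33 (adjusted p = 0.0229).

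H2az1, which encodes the nucleosome variant H2A.Z (chr3:137864487-137866922), was at 19.01 to 60.8 CPM in B6 (median 26.8), at 130.0, 151, 119, 78.6 and 89.7 in D2, and at 39.6, 50.7, 44.9, 34.2 and 25.99 in F1. F1 overlapped B6 and not D2, at -0.91 ± 0.15 (adjusted p = 0.00953). The predicted gene Gm8203, at -0.92 ± 0.15 (adjusted p = 0.00858), shares 50-base sequences with H2az1, so the reads of these 2 genes may not be separable. H1f4 shares 32.0% of its 50-base sequences with other genes and H2az1 35.4%.

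Histone genes were described together after these values were seen. Of 73 histone genes tested, 3 were called, 69 had a distance below 0, 19 had an unadjusted p under 0.05 below and none above, and their median distance was -0.36. Their summed level in batch 1 was 3634 to 4408 CPM in B6, 3450 to 5123 in D2 and 2746 to 3691 in F1. In batch 2 it was 2201 to 2229 in B6, 2256 to 2348 in D2 and 2263 to 2286 in F1, where F1 was not below the parents. Sequences shared within the whole set were not counted, so these genes may not be independent measurements. Over all 15842 genes 25 were called (0.158%), 8879 were below 0 (56.0%), 980 had an unadjusted p under 0.05 below (6.19%) and 438 above (2.76%), and the median was -0.04.

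The 3 genes not called against D2 were Cdo1, Fam53b and Il17rd, and in all 3 the F1 mean lay beyond the D2 mean, outside both parental means. Against D2 the adjusted p was 0.164 for Cdo1, 0.107 for Fam53b and 0.0665 for Il17rd. Cdo1, cysteine dioxygenase, was at 255 to 454 CPM in B6 (median 345), at 295, 318, 316, 195 and 163 in D2, and at 216, 248, 201, 174 and 207 in F1. F1 was below every B6 library and overlapped D2, at -0.55 ± 0.09 (adjusted p = 0.0115) in MII and -0.49 ± 0.10 in GV. Il17rd was at 191 to 234 CPM in B6 (median 225), at 234, 247, 229, 290.0 and 281 in D2, and at 260, 286, 284, 324 and 351 in F1. All F1 libraries were above all B6 libraries and they overlapped D2, at 0.34 ± 0.07 (adjusted p = 0.0328) in MII and 0.29 ± 0.11 in GV. The Il17rd call was lost in 12 of the 16 fits with 1 library left out. Fam53b had means of 38.9 CPM in B6, 28.2 in D2 and 21.4 in F1, and a distance of -0.69 ± 0.14 (adjusted p = 0.0328) in MII and of -0.05 ± 0.16 in GV.

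**Figure D3:**
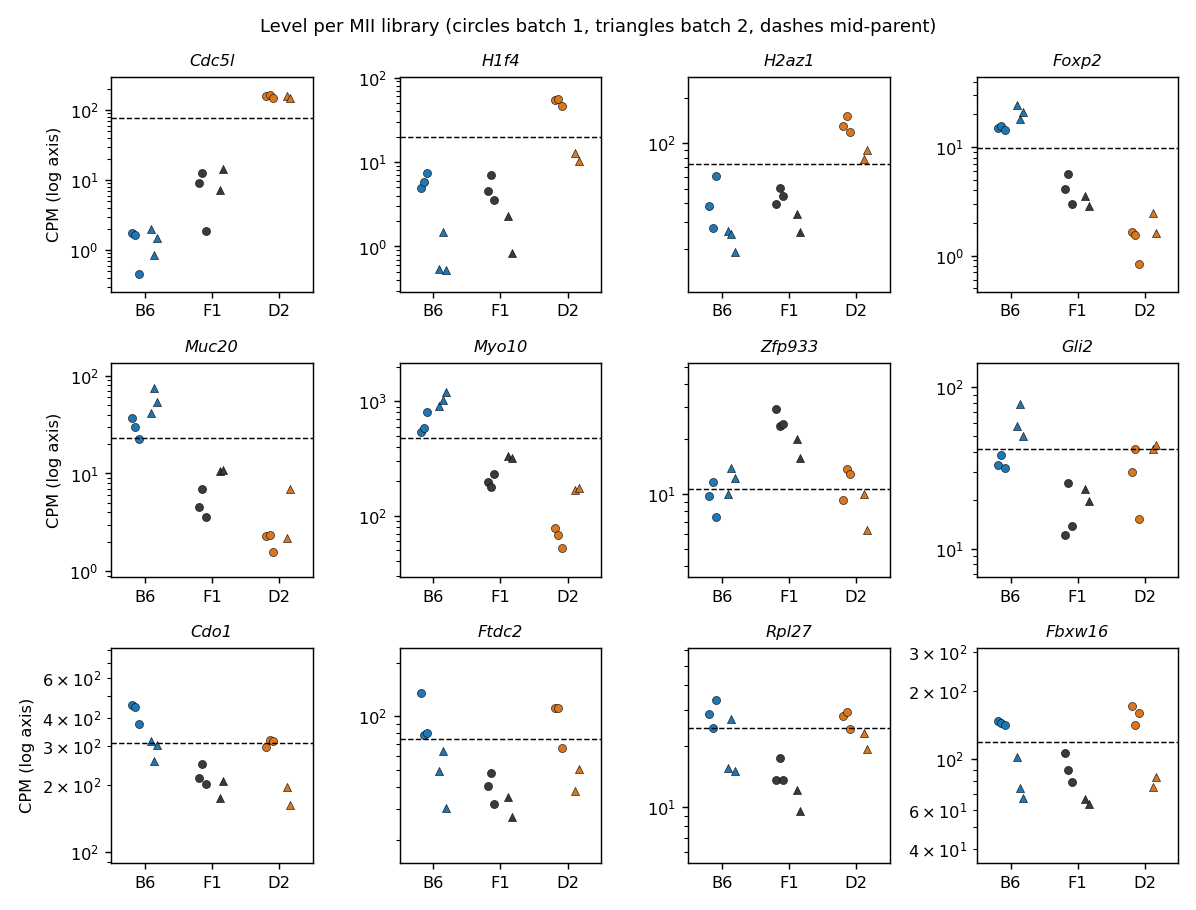
CPM in each MII library (y, log axes) of 12 genes by genotype (x), with circles for batch 1, triangles for batch 2 and a dashed line at the arithmetic mid-parent. For Cdc5l, H1f4 and H2az1 the F1 points sit with or near B6, for Muc20, Myo10 and Foxp2 nearer D2, for Zfp933 above both parents, and for Gli2, Cdo1, Ftdc2, Rpl27 and Fbxw16 below the dashed line.

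Zfp933, a zinc finger gene (chr4:147822986-147849126), was the called gene above both parents. It was at 7.49 to 13.9 CPM in B6 (median 10.8), at 9.22, 13.7, 12.9, 10.0 and 6.31 in D2, and at 29.2, 23.7, 24.1, 20.1 and 15.8 in F1. Every F1 library was above every parental library, which was so for 4 of the 15842 genes (0.0252%). F1 was at 209% of the mid-parent (95% interval 159 to 274), a distance of 1.06 ± 0.19 (adjusted p = 0.0185), and the distance in GV was 0.82 ± 0.19. The Zfp933 call was lost in 4 of the 16 fits with 1 library left out. The other gene above both parents was Atad2, a bromodomain ATPase, with F1 at 99.2, 76.8, 98.3, 89.3 and 99.5 CPM, B6 at 61.0 to 78.7 (median 69.8) and D2 at 69.2, 65.0, 78.9, 75.8 and 70.4. Of the 5 Atad2 libraries of F1, 4 were above all parental ones, and its distance of 0.38 ± 0.09 was not called against the mid-parent (adjusted p = 0.127).

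Below both parents lay Gli2, Ebf1 and Ftdc2, among others. Gli2, a transcription factor of Hedgehog signalling, was at 31.7 to 79.1 CPM in B6 (median 44.0), at 29.8, 41.8, 15.3, 41.4 and 43.9 in D2, and at 12.1, 25.7, 13.8, 23.4 and 19.6 in F1. F1 was below every B6 library and below 4 of 5 D2 libraries, at -1.05 ± 0.20 (adjusted p = 0.0262) in MII and -0.49 ± 0.16 in GV. Ebf1, another transcription factor, was near absent in F1, at 0.234, 0, 0, 0.0781 and 0.160 CPM beside 0.360 to 1.85 in B6 (median 0.544) and 0.972, 4.44, 2.16, 2.49 and 2.81 in D2. It was the only one of 15842 genes (0.00631%) with every F1 library below every parental library, and its adjusted p was 0.0229. Ftdc2, a ferritin domain gene on chromosome 16, had a distance of -0.97 ± 0.18 (adjusted p = 0.0263), whereas its neighbour Ftdc1 was at 114 CPM in B6, 112 in D2 and 112 in F1 and was not called.

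Another 8 genes were below both parents without a call against the mid-parent, among them Trim67, Zscan2, Dppa5a, Sim1, Xist, Atp1b2 and Zfp296. Their distances ran from -4.08 for Atp1b2 to -0.48 for Zfp296, with adjusted p from 0.0738 to 0.188. Xist, the RNA that coats the inactive X chromosome, was at 0, 0, 0, 3.28 and 1.64 CPM in F1, at 1.19 to 13.2 in B6 (median 1.70) and at 2.15, 0.416, 6.31, 8.20 and 4.58 in D2. All 3 F1 libraries at 0 were of batch 1. Closest to the threshold on the called side were Il17rd, Fam53b and Klf12 (adjusted p up to 0.0352), and on the other side Trim67 (0.0738), Runx2 and Fam114a2 (both 0.0858).

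A group of 4 of the 25 called genes, Fbxw13, Fbxw15, Fbxw16 and Fbxw18, stands in a cluster of 15 tested F-box and WD40 genes between 109139454 and 109790660 on chromosome 9. F-box proteins bring substrates to SCF ligases, which mark proteins for degradation, and this cluster is expressed in oocytes. The promoters found for 12 of the 15 all lie on the minus strand. The 140 bases before the annotated start (GRCm38.p6, minus strand, 5′ to 3′, from RefSeq) are given for 3 called genes, at chr9:109568263-109568402, chr9:109449141-109449280 and chr9:109702701-109702840, and for Fbxw28, which was intermediate, at chr9:109339660-109339799, to show how alike the promoters of genes with and without a departure are. Capitals mark CAGCTG, an E-box that reads the same on both strands.
Fbxw15: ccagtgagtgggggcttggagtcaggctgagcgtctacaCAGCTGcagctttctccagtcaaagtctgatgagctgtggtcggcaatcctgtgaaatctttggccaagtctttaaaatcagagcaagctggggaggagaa
Fbxw16: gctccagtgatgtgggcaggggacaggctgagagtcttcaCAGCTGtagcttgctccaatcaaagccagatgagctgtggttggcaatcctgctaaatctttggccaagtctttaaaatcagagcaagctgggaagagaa
Fbxw18: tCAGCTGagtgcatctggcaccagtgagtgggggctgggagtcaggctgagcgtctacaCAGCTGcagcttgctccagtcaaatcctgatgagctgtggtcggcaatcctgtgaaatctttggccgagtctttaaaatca
Fbxw28: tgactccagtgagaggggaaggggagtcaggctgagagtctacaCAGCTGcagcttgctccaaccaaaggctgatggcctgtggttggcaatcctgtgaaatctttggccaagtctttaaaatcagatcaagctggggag
CAGCTG occurred in the 250 bases before the start of 11 of the 12 cluster genes with a promoter in the RefSeq table, the exception being Fbxw23, and in 4271 of all 32851 promoters (13%). Over those 250 bases, pairs of called genes were 74.3 to 87.5% identical, and called genes and the others of the cluster were 64.1 to 94.8% identical without Fbxw23, to which every cluster gene with a promoter was 50.2 to 54.1% identical. Calls and intermediate levels therefore both occurred among promoters with the motif.

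Fbxw16 was at 67.2 to 148 CPM in B6 (median 122), at 173, 142, 160, 75.4 and 83.9 in D2, and at 107, 89.9, 79.1, 66.5 and 63.3 in F1. Across batches F1 overlapped both parents, and the distance was -0.55 ± 0.11 (adjusted p = 0.0266), with -0.72 in batch 1 and -0.31 in batch 2. Fbxw15 was at 93.6 to 196 CPM in B6 (median 154), at 170, 172, 172, 116 and 109 in D2, and at 132, 139, 103, 81.0 and 82.1 in F1, at -0.51 ± 0.10 (adjusted p = 0.0266). Fbxw13 was at 65.6 to 98.4 CPM in B6 (median 89.7), at 83.0, 87.1, 54.5, 76.9 and 69.2 in D2, and at 56.8, 47.0, 46.8, 58.5 and 52.4 in F1, at -0.61 ± 0.12 (adjusted p = 0.0266). In Fbxw13 all F1 libraries were below all B6 libraries and overlapped only the lowest D2 library. Fbxw18 had a distance of -0.51 ± 0.10 (adjusted p = 0.0328) and was not called against B6.

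Across the cluster all 15 distances were below 0, from -0.61 to -0.04 with a median of -0.35, and 10 had an unadjusted p under 0.05, all below. The same over all genes was 0.158% called, 56.0% below 0 and 6.19% with an unadjusted p under 0.05 below. From the batch 2 means alone, Fbxw20 (0.07) and Fbxw26 (0.09) lay above 0 and the other cluster genes below. The 2 most abundant members were intermediate: Fbxw28 was at 841 CPM in B6, 1442 in D2 and 1105 in F1, and Fbxw14 at 684, 1230 and 901. In GV, 11 of the 15 distances were below 0, the median was -0.04 and none was called by edgeR. Shared 50-base sequences made up 7.42 to 21.5% of the 4 called genes, 58.9% of Fbxw14 and 61.5% of Fbxw28, so the cluster's genes are not independent measurements.

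Of the ribosomal protein genes, Rpl27 and Rpl41 were called below the mid-parent. Rpl27, of the large subunit, was at 15.0 to 33.9 CPM in B6 (median 25.8), at 28.2, 29.5, 24.3, 23.2 and 19.4 in D2, and at 13.5, 17.5, 13.6, 12.1 and 9.58 in F1. F1 was below every D2 library and overlapped only the lower B6 libraries, with a distance of -0.91 ± 0.15 (adjusted p = 0.0115) in MII and 0.07 ± 0.12 in GV. Rpl41 had a distance of -0.90 ± 0.17 (adjusted p = 0.0262) in MII and 0.07 ± 0.11 in GV. The predicted gene LOC108167922, at -0.82 ± 0.16 (adjusted p = 0.0266) in MII, was also called.

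Of 81 cytosolic ribosomal protein genes tested, 2 were called below and none above, 71 had a distance below 0, 25 had an unadjusted p under 0.05 below and 2 above, and the median was -0.29. Of 77 nuclear respiratory chain genes none was called, 58 were below 0, 13 had an unadjusted p under 0.05 below and 1 above, and the median was -0.30. Of 75 mitochondrial ribosomal protein genes none was called, 51 were below 0 and the median was -0.14. Over all 15842 genes 0.158% were called, 56.0% were below 0, 6.19% had an unadjusted p under 0.05 below and 2.76% above, and the median was -0.04. The summed level of the cytosolic ribosomal protein genes in batch 1 was 2024 to 2145 CPM in B6, 2031 to 2487 in D2 and 1533 to 1874 in F1, so F1 lay below both parents, whose ranges overlapped. In batch 2 it was 959 to 1115 in B6, 1156 to 1231 in D2 and 1098 to 1107 in F1, where F1 lay inside the B6 range.

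Short transcripts as a whole lay below the mid-parent more often than long ones, and the part of transcript length in the calls was not tested. Among genes at 5 CPM or more, the median distance of the 284 with a transcript under 1000 bases was -0.20, with 79.2% below 0, and it was -0.32 in batch 1 and -0.04 in batch 2. For 1125 genes of 1000 to 2000 bases it was -0.03, and for the 3752 of 4000 bases or more it was 0.02. In GV the median of the short genes was 0.05. Without ribosomal protein, respiratory chain and histone genes, 193 short genes had a median of -0.14, with -0.22 in batch 1 and -0.03 in batch 2. Of the 34 genes called against the mid-parent or lying outside both parents, 32 had an annotated transcript length. Of these 32, 4 have transcripts under 1000 bases, Rpl27, Rpl41 and Dppa5a among them. At 5 CPM or more, 284 of the 8531 genes with a length were that short, a limit on level that the 34 genes do not have.

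**Figure D4:**
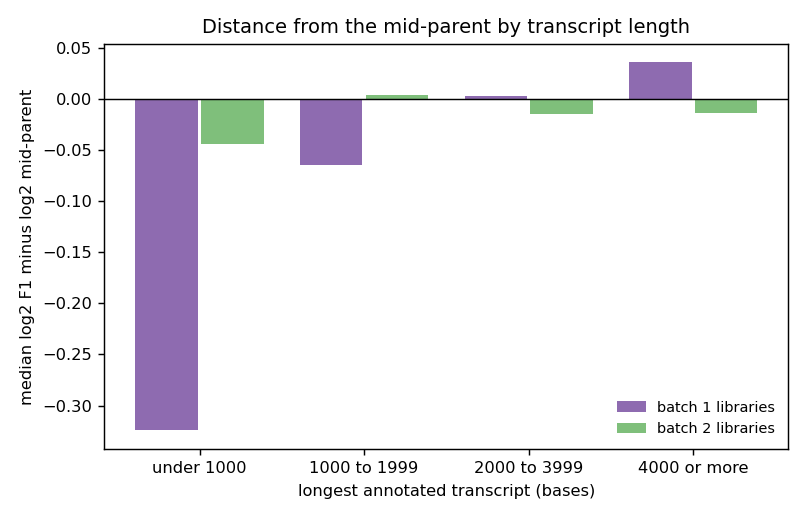
Median distance of F1 from the mid-parent (y, log2) by transcript length (x, bases) for genes at 5 CPM or more, with separate bars for batch 1 and batch 2. The bars for transcripts under 1000 bases are at -0.32 and -0.04, and those for longer transcripts lie between -0.06 and 0.04.

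With 0.158% of all genes called, few calls can fall in a short list, and a list without one is no result about it. Of 25 lists with 1151 entries, 23 had no called gene. None was called by edgeR among 21 zona and oocyte-secreted genes (0 with an unadjusted p under 0.05), 22 genes of the subcortical maternal complex and Nlrp family (4, all below), 44 of cohesin, kinetochore and spindle checkpoint (1 below) or 53 of maternal chromatin and DNA methylation (1 above and 3 below). The medians of these 4 lists lay between -0.06 and -0.00. In the list of 54 spindle, microtubule and actin genes 1 was called, Myo10, and the median was 0.02. Markers of the cells around the oocyte lay mostly below the mid-parent without a call: of 15 granulosa and cumulus markers tested, 13 were below 0, 6 had an unadjusted p under 0.05 below and the median was -0.68. Over all 33 markers, F1 summed to 392.8 to 468.5 CPM beside 326.2 to 442.6 in B6 and 438.2 to 543.2 in D2. Of these 33, 20 were under 1 CPM in B6, 19 in D2 and 22 in F1. The mean log2 level of the 33, with a small constant added, was -0.65 ± 0.43 (SD) in 6 B6 libraries. It was -0.09 ± 0.52 in 5 D2 libraries and -0.83 ± 0.41 in 5 F1 libraries. With that level as a covariate, an alternative chosen after seeing the data, the number of genes called against the mid-parent was 7. The 12 stroma and blood markers tested had a median of 0.20.

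The GV libraries gave a second look at the same genes in other samples. Granulosa RNA in these pools adds to the GV levels, so a GV distance is not one of oocyte transcripts alone. There the parents differed at 3467 genes (19.5%) and F1 was called against the mid-parent at 2 of 17770 (0.0113%), Cdc5l and Muc20, both below. Intermediate F1 levels were found at 257 genes. Of the 34 genes called or outside both parents in MII, 24 had a GV distance of the same sign. Of the 25 called in MII it was 20, and of all 15491 genes tested at both stages it was 55.9%. For 11 of the 24 the unadjusted p in GV was under 0.05. The share of all genes with that was not counted, so no more is read from the 11. Genes with like distances at both stages included Cdc5l, Muc20, Myo10, Cdo1 and Zfp933, while Rpl27, Rpl41, Fbxw16 and Fbxw18 were near 0 in GV. For these 9 genes the difference between the stages had an adjusted p of 0.583 to 0.999.

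**Figure D5:**
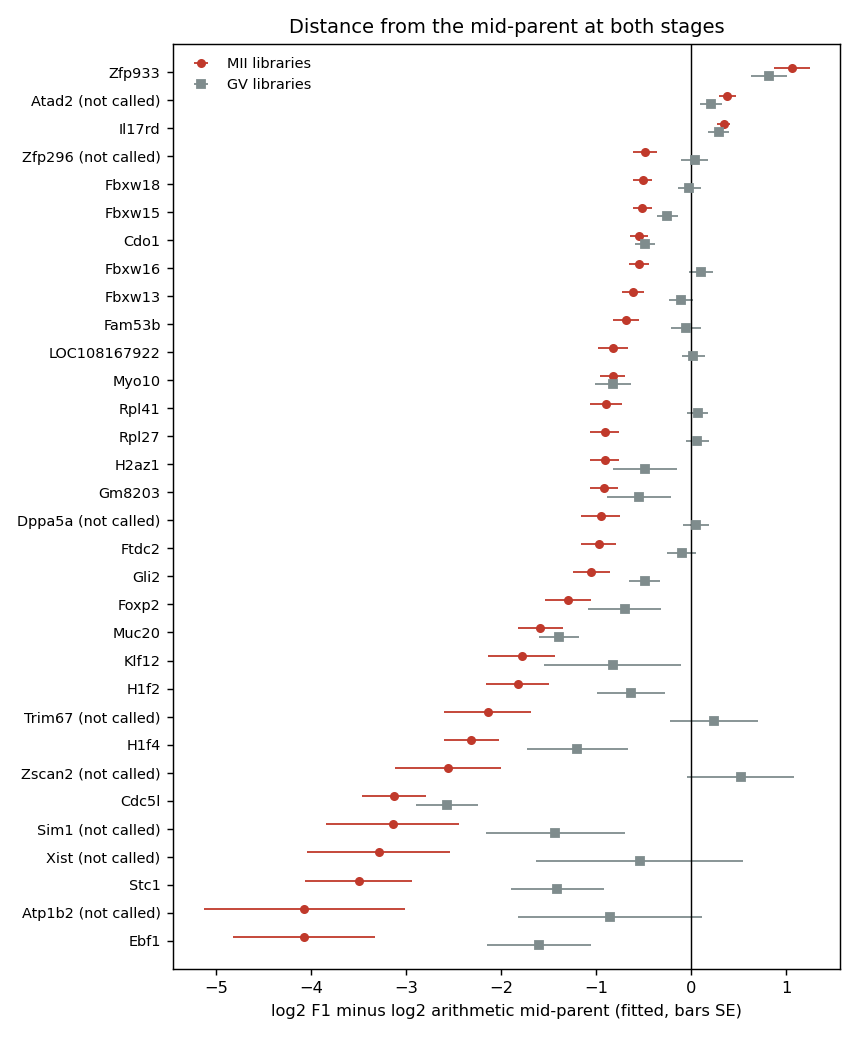
Distance of F1 from the mid-parent (x, log2, with SE bars) in MII and in GV for 32 of the 34 genes called or outside both parents in MII (y, sorted by the MII distance); the vertical line is the mid-parent. Cdc5l and Muc20 lie left of the line at both stages, at -3.13 and -1.59 in MII and at -2.58 and -1.39 in GV.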

How the data were processed

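MII and GV oocyte pools of B6, D2 and B6xD2 F1 mice were profiled by RNA sequencing. Per the labels' protocols, RNA was amplified by SPIA, libraries had 12 PCR cycles, and reads were single, of 50 bases. Per the submitters' processing notes, the authors aligned reads with HISAT2 to GRCm38.p4, used SAMtools, counted with featureCounts of Subread 1.5.1 and used DESeq2 1.16.1; strand and multi-mapping settings are not given in the sources used here. Raw read counts per NCBI gene were deposited, without normalisation. Of 37444 entries, 3 named no gene (at most 0.00973% of an MII library) and were left out; 36371 had a RefSeq name. MII depth was 26838385 to 35850302 and GV depth 18696957 to 39688961 reads; without molecular identifiers, reads are not independent molecules.

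Counts were scaled by TMM, filtered with filterByExpr and fitted in edgeR 4.0.16 (R 4.3.3) by robust quasi-likelihood with genotype and batch. The distance log2(F1) - log2((B6 + D2)/2) was taken from the fitted levels, with a delta-method SE from the quasi-likelihood dispersion, a two-sided t reference on the moderated degrees of freedom and Benjamini-Hochberg adjustment over all genes tested (threshold 0.05). Pairwise contrasts used edgeR's quasi-likelihood test. The procedure was tested on simulated data, with departures planted in genes at 5 CPM or more. It recovered 20 of 50 departures of 1.5-fold, 45 of 50 of 2-fold, and all 50 at 4-fold and at 8-fold. It called 12 of 15266 genes set at the mid-parent. Many departures of 1.5-fold or less can therefore go uncalled. GV libraries were fitted separately in the same way. CPM are TMM-scaled. Genes were named where both batches had 1 direction and the mean reached 5 CPM, and were the largest departures, the largest parental folds per class, the genes farthest outside the parents, the most abundant near-off genes and the intermediate genes of each list; other out-of-range genes, the Fbxw cluster, histone genes and transcript length were added after their values were seen. Of the 34 genes called or outside both parents, 2 are counted but not reported here by name. The members and lists were chosen with earlier results of these data known. Shared 50-base sequences were counted in GENCODE M21 transcripts; promoters came from RefSeq (GRCm38.p6, whose chromosome coordinates equal those of p4).

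Replicate numbers within batches were not used to pair the samples. For 11 same-numbered pairs the correlation of deviations ran from -0.19 to 0.24. The deviations were from means of only 2 or 3 libraries, which ties their values together, so whether the numbers pair the samples cannot be told from them. Alternatives were other scalings and filters, DESeq2 1.42.0, limma 3.58.1 with voom or on linear CPM, a geometric mid-parent, other batch terms, single batches, a replicate block, a granulosa covariate and leaving out each library. The granulosa covariate and the GV leave-one-out were added after seeing the data.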

Additional observations from a re-analysis of the deposited data

Results flagged for a closer look

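In 3 genes called against the mid-parent, D2 batch 2 replicate 2 stood apart from the other 4 D2 libraries by Dixon's criterion. Its Stc1 level was 45.1 CPM beside 7.19 to 15.2 in the other D2 libraries, its Klf12 level was 22.1 CPM beside 14.1 to 16.4, and its Muc20 level was 7.00 CPM beside 1.57 to 2.33. The groups examined numbered 102, and chance alone marks about 1 group in 20.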

How the results depend on the processing

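The number of genes called against the mid-parent (25, of which 2 above and 23 below), of intermediate genes (572), of genes called toward 1 parent or not called against it (15) and of genes outside both (19) was recomputed under each alternative, and the cause of a change was not tested. With RLE scaling, upper quartile scaling or at least 1 CPM in 5 libraries the calls were 25, 22 and 25. Without a filter on low counts they were 242 (58 above, 184 below), with 122 toward 1 parent and 79 outside. DESeq2 gave 118 (18 above, 100 below), 75 and 41; voom gave 33, with 5 above. All 25 calls were kept by each of these 3. A geometric mid-parent gave 203 (180 above, 23 below) with 187 toward 1 parent, and Klf12 reversed to 1.09 (adjusted p = 0.163). Linear CPM gave 5 (3 above, 2 below), 281 intermediate, 2 toward 1 parent and 7 outside. All 32 libraries gave 26, with 411 intermediate, 11 toward 1 parent and 32 outside. Without a batch term there was 1 call, below (0 above; 189, 1 and 5 in the classes), which was Cdc5l. With 3 batch levels, batch 2 split by the date in the library names, there were 13 (1 above, 12 below; 335, 7 and 24). Batch 1 alone gave 18 (16 below; 141, 7 and 10). Batch 2 alone gave 117 (115 below; 64, 10 and 0). A further limit of 1.5-fold gave 20, with 1 above. The granulosa covariate gave 7, all below (0 above; 377, 5 and 10). With the replicate block 8 were called, all below (0 above, with 268, 6 and 8 in the classes). Whether the replicate numbers pair the samples could not be told. Leaving out 1 library in turn gave 6 to 30 calls (0 to 2 above, 6 to 28 below; 6, 10, 11, 12, 14 and 16 without F1 batch 1 replicate 5, F1 batch 1 replicate 3, D2 batch 1 replicate 3, D2 batch 1 replicate 2, F1 batch 2 replicate 2 and B6 batch 1 replicate 1), 374 to 575 intermediate genes (lowest without F1 batch 2 replicate 1), 5 to 18 toward 1 parent (5 without F1 batch 1 replicate 5; 8 without F1 batch 1 replicate 3 or D2 batch 1 replicate 2 or 3) and 11 to 23 outside (11 without F1 batch 1 replicate 3 or 5). Near-off medians were 44.5 to 51.1% (off in B6) and 33.5 to 38.4% (off in D2); batch 2 alone gave 42.8% for the first and batch 1 alone 38.9% for the second. GV calls were 1 in batch 1 alone, 0 in batch 2 alone and 0 to 2 leaving out 1 library, against 2. Pools of few oocytes, 5 or 6 mothers a group and amplified RNA limit the precision of genes under 5 CPM.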
